A study of Rattus norvegicus with 16 samples.

Results

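Leukocyte miRNAs are microRNAs that white blood cells make in quantity, and 7 of them were followed here in the hearts of newborn rats: rno-miR-150, rno-miR-150*, rno-miR-223, rno-miR-146a, rno-miR-142-3p, rno-miR-142-5p and rno-miR-155 (the prefix, for rat, is left out below). They were taken by name from the 677 rat miRNAs on an Agilent one-colour array, as a readout of blood cell content, and 6 of the 7 had values. miR-155 was not analysed here. The study measured 1 array per animal in 16 pups aged 2 days: 4 females and 4 males of the HHR (the Hypertrophic Heart Rat, an inbred strain with polygenic cardiac hypertrophy), and 4 females and 4 males of the NHR (the Normal Heart Rat, its control strain). All pups were killed with pentobarbitone, no animals were pooled, and 100 ng of total RNA per heart was labelled with Cy3. The labels differ on the tissue: the design text has ventricles dissected away from the atria, the growth protocol the whole heart. Neither text mentions flushing of blood from the heart.

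A miRNA is a short RNA that guides Argonaute proteins to messenger RNAs, and its seed, bases 2 to 8 from the 5′ end, sets most of that choice. In blood, miR-150 is high in mature lymphocytes, where it restrains the transcription factor Myb, and miR-223 is high in neutrophils and other myeloid cells. Nearly all blood lineages make the 2 arms of the miR-142 hairpin, and miR-146a is induced by NF-κB and dampens Toll-like receptor signalling through Traf6 and Irak1. A heart piece holds blood in its vessels and resident leukocytes besides cardiomyocytes, endothelium and fibroblasts, and miR-146a can also be made by endothelial cells.

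The mature sequences are shown because the arrays read these strands, and because they tell the members apart. RefSeq held 4 of the 6 members with values (build GRCr8), and the capitals in the mature forms mark the seed.
miR-223: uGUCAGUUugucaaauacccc
miR-146a: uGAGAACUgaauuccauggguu
miR-146b: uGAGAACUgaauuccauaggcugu
miR-142-3p: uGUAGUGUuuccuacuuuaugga
miR-142-5p: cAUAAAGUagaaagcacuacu
miR-142 hairpin: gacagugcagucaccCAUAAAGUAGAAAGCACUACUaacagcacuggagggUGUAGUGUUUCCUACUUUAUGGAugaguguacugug
In the hairpin the capitals mark the mature arms, miR-142-5p first and miR-142-3p second. The Mir142 hairpin of 87 bases lies at chr10:73055104-73055190 on the plus strand, with miR-142-5p at chr10:73055119-73055139 and miR-142-3p at chr10:73055155-73055177. Mir146a is on the same chromosome, on the minus strand, with its mature form at chr10:28350053-28350074, and miR-223 lies at chrX:65151450-65151470 on the plus strand. The 4 members have 4 different seeds, and no other mature rat miRNA of the RefSeq table shares the seed of miR-223, miR-142-3p or miR-142-5p. miR-146b, at chr1:255144874-255144897 on the plus strand and not a member, shares the seed of miR-146a. Over the 22 positions of miR-146a, counted from the 5′ end, 20 were identical and the differences were G18A and U21C (miR-146a base first). The array has probes for each of them, and how far either set takes up the other's RNA was not tested.

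Of the 6 members with values, 4 (miR-150, miR-223, miR-146a and miR-142-3p) were detected by the scanner software on all 16 arrays, a state reached by 27.5% of the rat miRNAs on the array. miR-150*, from the other arm of the miR-150 hairpin, was detected on 14 arrays, 8 of 8 HHR and 6 of 8 NHR. The arrays without detection were NHR female 2 and NHR male 1, and a two-sided Fisher's exact test between the strains gave p = 0.467. With so few arrays lacking detection this is the smallest p the test can give, so it could not have passed. miR-142-5p was detected on 0 of 16 arrays, as were 61.6% of all miRNAs on the array, although its partner arm miR-142-3p was detected on all of them.

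Levels are given as scaled signal: the background-subtracted intensity of a miRNA after each array was brought to a common 75th percentile, which leaves 1 scale for a given miRNA over the arrays but none between miRNAs. The scanner software detected 200 to 239 miRNAs on each array, and no spot was saturated. Before scaling, the 75th percentile lay between 417.7 and 525.2 on the 8 HHR arrays, against 294.7 to 502.9 on the 8 NHR arrays. NHR female 3, NHR male 2 and NHR male 4 were as bright as the HHR arrays, and the other 5 NHR arrays were all dimmer than any HHR array. This brightness moves with strain, so values by brightness stand beside the results that it touches. As a check of the tissue, 5 of 6 cardiomyocyte miRNAs were on all 16 arrays (miR-208, the sixth, was on none), while liver miR-122 and the 4 epithelial miRNAs were on no array.

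The levels of 3 leukocyte miRNAs, miR-150, miR-223 and miR-146a, were lower in HHR than in NHR hearts, and those of miR-142-3p and miR-150* did not pass the test. In the limma fit over 233 tested miRNAs, 3 of the 5 tested members were lower in HHR at an adjusted p under 0.05 and 0 were higher. The background is large: under this scaling 54.5% of all tested miRNAs were called, 45.5% lower and 9.01% higher, and 60.9% had an unadjusted p under 0.05, so a lower call in 3 of 5 is near what the array as a whole showed. The median log2 difference of HHR minus NHR was -0.34 over the 5 members and -0.11 over all tested miRNAs. In RNA from a whole tissue piece, fewer cells of a type and less RNA per cell cannot be told apart.

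**Figure D1:**
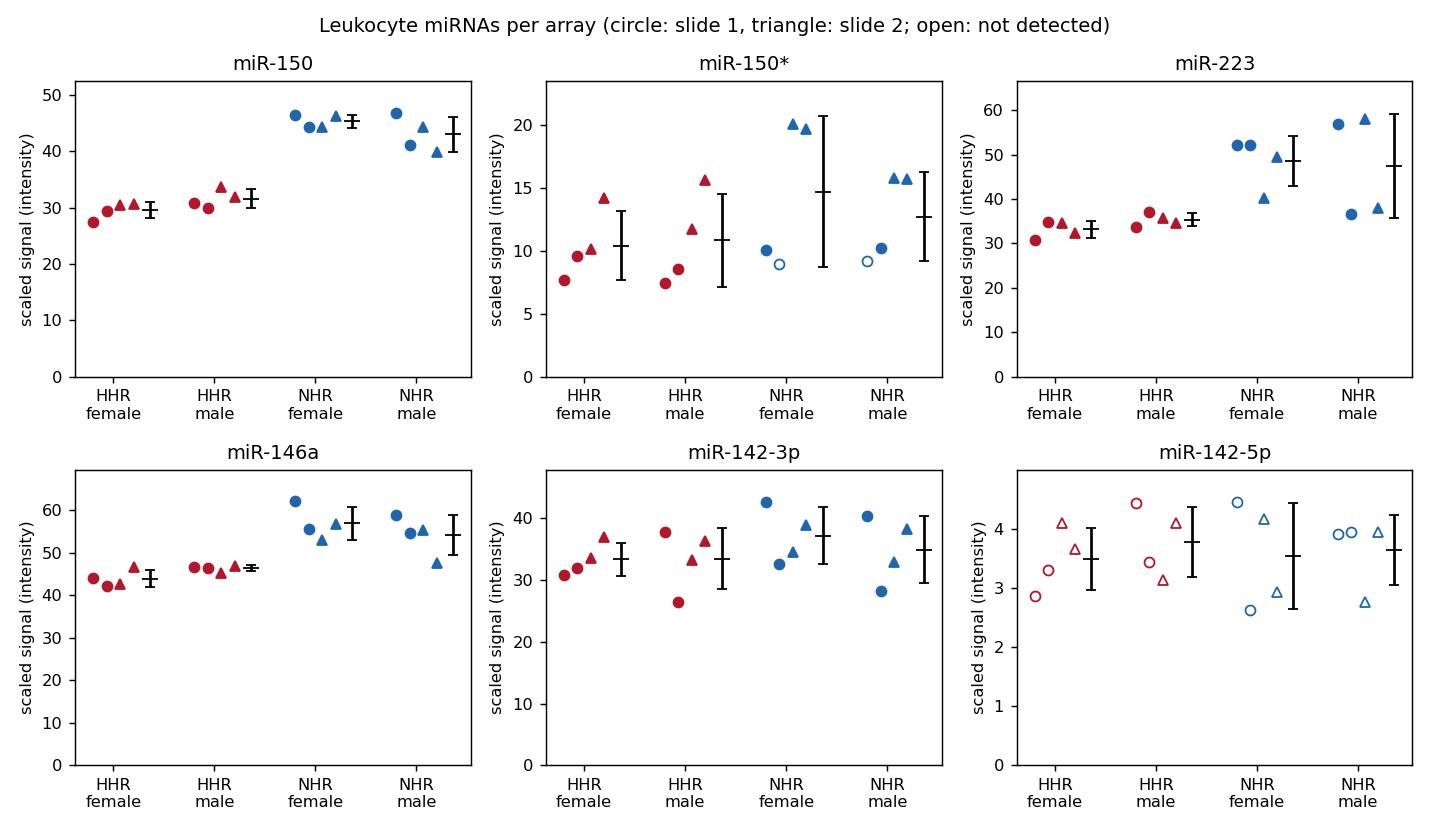
Scaled signal (linear intensity, axis from 0) of the 6 leukocyte miRNAs on each array, HHR in red and NHR in blue, with circles for slide 1, triangles for slide 2 and open symbols where the miRNA was not detected. Bars give the mean ± SD of 4 animals. The strains lie apart for miR-150 and miR-146a, nearly apart for miR-223, and overlap for miR-142-3p, and miR-150* splits by slide.

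miR-150, the lymphocyte miRNA, showed the clearest separation. Its scaled signal had a lowest value of 27.5, a median of 30.6 and a highest of 33.8 over the 8 HHR arrays, against 39.9, 44.4 and 46.8 over the 8 NHR arrays. Every HHR heart was below every NHR heart, which held for 11.2% of tested miRNAs. The means were 30.6 ± 1.81 in HHR hearts and 44.2 ± 2.52 in NHR hearts (SD, n = 8 each). The log2 difference was -0.53 ± 0.04 (SE), 1.45-fold lower in HHR, with a limma adjusted p of 1.05e-07, the fifth smallest p among the tested miRNAs. Within the slides the difference was -0.60 on slide 1 and -0.46 on slide 2, with limma adjusted p of 0.00246 and 0.00230. The difference was present in both sexes, at -0.62 ± 0.05 in females and -0.44 ± 0.05 in males (SE). By brightness, the 3 bright NHR arrays gave 39.9 to 44.4 and the 5 dim ones 44.4 to 46.8, all above the HHR arrays, and with brightness as a covariate the difference was -0.47 (limma adjusted p = 2.37e-06). Without scaling the strains overlapped, at 30.2 to 38.6 in HHR hearts and 31.4 to 53.6 in NHR hearts, and the call was lost (-0.19, limma adjusted p = 0.173), as it was in the authors' deposited table of values (-0.07, limma adjusted p = 0.207). The array carries 2 probes for miR-150, of 10 spots each. The brighter probe averaged 52.8 ± 2.54 in HHR hearts and 75.8 ± 4.11 in NHR hearts (SD, n = 8 each), a log2 difference of -0.52. The other probe gave -0.59 but was above background on 0 HHR and 2 NHR arrays, so the difference rests on the brighter one.

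miR-223, the myeloid miRNA, was lower in HHR with a wide spread in NHR. Its scaled signal ran from 30.8 through a median of 34.7 to 37.1 in HHR hearts, against 36.6, 50.8 and 58.1 in NHR hearts. The strains overlapped only where the highest HHR heart, HHR male 2, passed the lowest NHR heart, NHR male 2. The means were 34.2 ± 1.94 in HHR hearts and 47.9 ± 8.51 in NHR hearts (SD, n = 8 each), a log2 difference of -0.47 ± 0.10 (SE) and 1.38-fold lower in HHR (limma adjusted p = 0.00152). The 2 probes gave -0.44 and -0.49. The NHR spread followed array brightness: the 3 bright NHR arrays gave 36.6 to 40.2 and the 5 dim ones 49.4 to 58.1, with no value in between. The HHR arrays, all bright, reached up to 37.1. Without scaling, miR-223 averaged 38.5 ± 1.87 in HHR and 42.1 ± 3.11 in NHR, a difference of -0.13 that did not pass (limma adjusted p = 0.175). With brightness as a covariate in the fit the difference was -0.21 with a limma adjusted p of 0.00624. Within the slides it was -0.52 on slide 1 and -0.42 on slide 2, and neither passed (limma adjusted p = 0.0651 and 0.103). In females the difference was -0.54 ± 0.14 (limma adjusted p = 0.00930), and in males -0.39 ± 0.14 (SE), which did not pass (0.0619).

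miR-146a, the inflammatory feedback miRNA, was lower in HHR by a smaller amount. The lowest, median and highest scaled signals were 42.1, 45.8 and 46.8 in HHR hearts, against 47.5, 55.4 and 62.1 in NHR hearts. The strains did not overlap, though the highest HHR heart and the lowest NHR heart, NHR male 4, were close. The means were 45.0 ± 1.92 in HHR hearts and 55.4 ± 4.25 in NHR hearts (SD, n = 8 each), a log2 difference of -0.30 ± 0.04 (SE) and 1.23-fold lower in HHR (limma adjusted p = 1.17e-04). Both probes gave about the same difference, -0.29 and -0.30. The 3 bright NHR arrays held 47.5 to 54.7 and the 5 dim ones 55.2 to 62.1, so every bright NHR array was still above every HHR array. With brightness as a covariate the difference was -0.24 (limma adjusted p = 0.00324). Without scaling miR-146a averaged 50.8 ± 4.33 in HHR and 49.9 ± 9.69 in NHR, and the sign turned (0.04, limma adjusted p = 0.766). On slide 1 the difference was -0.37 (limma adjusted p = 0.00961) and on slide 2 -0.23 (0.0598). It passed in females at -0.37 ± 0.06 and in males at -0.22 ± 0.06 (SE), with limma adjusted p of 4.05e-04 and 0.0223.

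**Figure D2:**
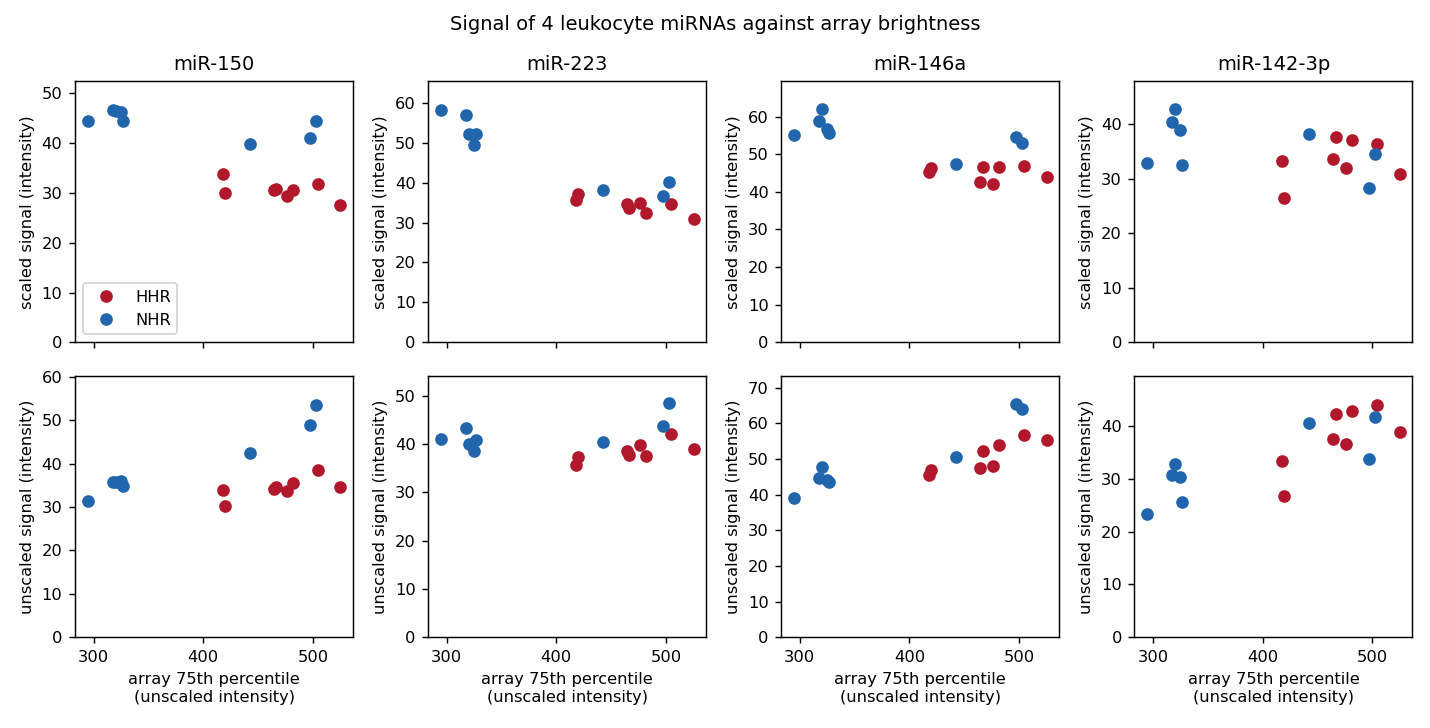
Scaled (top) and unscaled (bottom) signal of 4 leukocyte miRNAs against the unscaled 75th percentile of the array, 1 point per array, HHR in red and NHR in blue. Scaled miR-223 is at 36.6 to 40.2 on the 3 bright NHR arrays, near the HHR arrays, and at 49.4 to 58.1 on the 5 dim ones. Scaled miR-150 of every NHR array is above every HHR array at either brightness.

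miR-142-3p, made by nearly all blood lineages, did not differ between the strains beyond their spread. Its scaled signal had a lowest value of 26.5, a median of 33.4 and a highest of 37.7 in HHR hearts, against 28.3, 36.4 and 42.7 in NHR hearts. The ranges overlapped over most of their length. The means were 33.4 ± 3.70 in HHR hearts and 36.1 ± 4.79 in NHR hearts (SD, n = 8 each), and the log2 difference of -0.11 ± 0.09 (SE) did not pass (limma adjusted p = 0.318). Relative to the median of all tested miRNAs the difference was -0.0018. The 3 bright NHR arrays gave 28.3 to 38.2 and the 5 dim ones 32.5 to 42.7. Its direction changed with the scaling: without scaling the difference was 0.23, and under quantile normalization 0.03, neither passing the test.

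miR-150* was dim and split by slide more than by strain. Its scaled signal had a lowest value of 7.43, a median of 9.87 and a highest of 15.7 in HHR hearts, against 8.94, 13.0 and 20.1 in NHR hearts. On slide 1 it averaged 8.31 ± 0.98 in HHR and 9.60 ± 0.64 in NHR, and on slide 2 12.9 ± 2.48 in HHR hearts and 17.8 ± 2.37 in NHR hearts (SD, n = 4 each). Each slide carried 2 arrays of every group, replicates 1 and 2 on slide 1 and replicates 3 and 4 on slide 2. The log2 difference of -0.34 ± 0.23 (SE) did not pass (limma adjusted p = 0.204). With the slide as a block the same difference passed (limma adjusted p = 0.0116), while within the slides it was -0.21 and -0.47 and neither passed (limma adjusted p = 0.146 and 0.0615). The 2 probes for miR-150* were above background on 8 arrays and 1 array, so its values lie near the limit of the measurement. miR-142-5p, undetected throughout, read 2.86 to 4.44 in HHR hearts and 2.62 to 4.45 in NHR hearts, ranges that overlap almost fully, and it was not tested.

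Sex did not separate the leukocyte miRNAs. The differences of females minus males, averaged over the strains, lay between -0.02 and 0.06 on the log2 scale for the 5 tested members, with limma adjusted p of 0.970 to 0.983. Over all 233 miRNAs limma called 0% at an adjusted p under 0.05, and 9.87% had an unadjusted p under 0.05. In miR-150, the group means were 29.5 ± 1.45 in HHR females, 31.6 ± 1.64 in HHR males, 45.3 ± 1.13 in NHR females and 43.0 ± 3.14 in NHR males (SD, n = 4 each). For miR-150 the sexes thus differed by less than the strains in each case. The fitted strain difference was more negative in females than in males for all 5 members, with interactions between -0.19 and -0.09 on the log2 scale, and none passed (limma adjusted p of 0.929 to 0.954). For miR-150 the interaction was -0.18 ± 0.08 (SE), among the 3.86% of tested miRNAs with an unadjusted p under 0.05.

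Ratios between 2 miRNAs on the same array do not change with the factor that scales the array, and they were added after the data had been seen. The miR-150 over miR-146a log2 ratio lay between -0.68 and -0.42 on the HHR arrays and between -0.42 and -0.25 on the NHR arrays, without overlap though the nearest arrays all but met. Its difference was -0.23, 1.18-fold lower in HHR, with a two-sided exact permutation p of 1.55e-04, the smallest that 12870 splits can give, and 0.00155 after Benjamini-Hochberg adjustment over 10 ratios. It was as large within each slide, at -0.23 and -0.24, each with the smallest exact p of 0.0286 that 4 arrays against 4 can give. The ratio of the 3 bright NHR arrays, -0.41 to -0.25, covered about the same range as that of the 5 dim ones, -0.42 to -0.29. Of the 185 other miRNAs on all 16 arrays, 4.86% were lower in HHR relative to miR-146a at an unadjusted exact permutation p under 0.05, and 9.73% relative to miR-142-3p. miR-150 was also lower in HHR relative to miR-142-3p, with a difference of -0.42 (exact permutation p = 6.22e-04, adjusted 0.00207). HHR arrays lay between -0.29 and 0.18 and NHR arrays between 0.06 and 0.54. On slides 1 and 2 this ratio differed by -0.43 and -0.42 (exact permutation p = 0.0571 and 0.0286). Its 3 bright NHR arrays gave 0.06 to 0.54 and the 5 dim ones 0.12 to 0.45. miR-223 relative to miR-142-3p had a difference of -0.36 that passed (exact permutation p = 0.0107, adjusted 0.0214), but not within either slide alone (exact p = 0.0857 on each). By brightness, the 3 bright NHR arrays gave -0.0066 to 0.37 for this ratio, inside the HHR range of -0.19 to 0.49. The 5 dim NHR arrays gave 0.29 to 0.82. The sizes depend on the processing. The normexp alternative adds an offset of 50 to each signal, which by itself makes log ratios smaller. How the authors' deposited table was processed is not given. With normexp and in that table, the difference was -0.075 and -0.073 for miR-150 over miR-146a, and -0.15 and -0.14 for miR-150 over miR-142-3p. For miR-223 over miR-142-3p it was -0.14 and -0.12. Each still passed (adjusted exact permutation p of 0.00777 to 0.0319). The miR-150 over miR-223 ratio did not differ beyond its spread, at -0.06 (exact permutation p = 0.423). It differed between bright and dim NHR arrays: 0.07 to 0.17 on the 3 bright NHR arrays and -0.39 to -0.10 on the 5 dim ones, against -0.31 to -0.08 on the HHR arrays. The ratios of miR-223 to miR-146a (-0.17) and of miR-146a to miR-142-3p (-0.19) both missed the threshold at an adjusted exact permutation p of 0.0629.

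**Figure D3:**
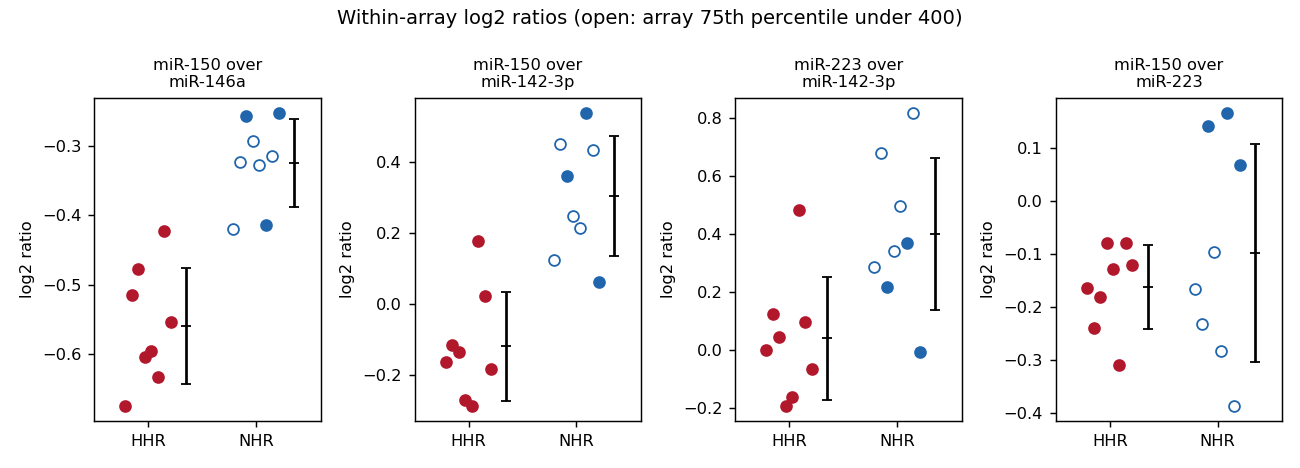
Log2 ratio of 2 leukocyte miRNAs on the same array, HHR in red and NHR in blue, 8 arrays each, with open symbols for arrays whose 75th percentile was under 400 and bars for the mean ± SD. miR-150 over miR-146a lies between -0.68 and -0.42 in HHR and between -0.42 and -0.25 in NHR, and miR-150 over miR-223 is higher on the 3 bright NHR arrays than on the 5 dim ones.

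A second group known from blood is that of the red cell miRNAs. miR-451 and miR-144 come from 1 erythroid gene cluster and are abundant in red cells. miR-451 had a lowest, median and highest scaled signal of 169.7, 234.4 and 264.8 in HHR hearts, against 182.2, 222.3 and 286.3 in NHR hearts. miR-144 had 29.2, 36.9 and 42.8 in HHR hearts, against 26.6, 34.3 and 45.5 in NHR hearts. The strains overlapped throughout for both, and the differences of 0.04 ± 0.11 and 0.07 ± 0.11 (SE) did not pass (limma adjusted p = 0.796 and 0.598). Set against miR-451 on the same array, all 4 leukocyte miRNAs detected on every array were lower in HHR, with differences of -0.57 for miR-150, -0.50 for miR-223, -0.33 for miR-146a and -0.14 for miR-142-3p (exact permutation p adjusted over the 10 ratios of 0.00207, 0.0186, 0.0258 and 0.0231). Most miRNAs were lower by this measure: of the 185 others on all 16 arrays, 81.6% had a negative difference against miR-451, with a median of -0.14, close to the value of miR-142-3p, and 20.5% were lower at an unadjusted exact permutation p under 0.05. In the authors' deposited table the miR-142-3p ratio did not pass (adjusted exact permutation p = 0.0666). Within the slides the miR-150 to miR-451 ratio differed by -0.58 and -0.56 (exact p = 0.0286 and 0.0571). Those of miR-223, miR-146a and miR-142-3p to miR-451 passed on neither slide (exact p of 0.0571 to 0.2). By brightness, the miR-223 ratio was -2.91 to -2.32 on bright and -2.33 to -1.72 on dim NHR arrays, against -3.02 to -2.19 in HHR. For miR-142-3p the bright NHR arrays gave -2.91 to -2.65 and the dim ones -2.68 to -2.50, against -2.85 to -2.68 in HHR. miR-150 gave -2.84 to -2.15 on bright and -2.50 to -2.11 on dim NHR arrays, against -3.10 to -2.50 in HHR. miR-146a gave -2.59 to -1.74 and -2.08 to -1.79, against -2.51 to -1.87.

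From heart to heart, the levels closest to miR-142-3p were those of the erythroid miRNAs. Among 185 other miRNAs on all 16 arrays, the 3 whose deviations from their group means were most like those of miR-142-3p were miR-451 (Pearson r = 0.89), miR-144 (r = 0.84) and miR-210, a hypoxia-induced miRNA (r = 0.67). These are descriptions over 16 arrays that share their scaling. For miR-451 the correlation was 0.99 within HHR and 0.81 within NHR, 0.94 on slide 1 and 0.85 on slide 2, 0.82 without the 2 arrays farthest from the median, and 0.97 without scaling. HHR male 2 and NHR male 2 were the lowest of their strains for both: 26.5 and 28.3 for miR-142-3p, and 169.7 and 182.2 for miR-451. miR-150 was most like let-7c (r = 0.77), miR-342-3p (0.75) and miR-290 (0.74), and miR-146a most like miR-15b (0.85), miR-342-3p (0.82) and miR-455* (0.73). On the HHR arrays alone these were 0.69, 0.42 and 0.77 for miR-150, and 0.64, 0.59 and -0.31 for miR-146a. miR-223 was most like miR-125a-5p (r = 0.96), miR-365 (0.96) and miR-2985 (0.95). Within the HHR arrays alone, which span a narrower range of brightness, these were 0.79, 0.80 and 0.78. The relation of a scaled level to brightness was computed within the 8 HHR arrays, since the NHR arrays fall into 2 clusters. Both entered as deviations from group means on the log2 scale. Each scaled level had been divided by this same brightness, so a miRNA with a flat unscaled signal gives a negative r by construction. Unscaled miR-223 lay between 35.8 and 42.0 on these arrays. The p-values do not separate this from any other relation. miR-223 gave the strongest of the 4 relations, with Pearson r = -0.73 and Spearman's rho = -0.69 (exact permutation p = 0.0382 and 0.0747, adjusted over the 4 members 0.153 and 0.149), and r = -0.72 without the 2 arrays farthest from the median. miR-150, miR-146a and miR-142-3p had r of -0.36, 0.32 and 0.43 (exact permutation p of 0.351 to 0.474).

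**Figure D4:**
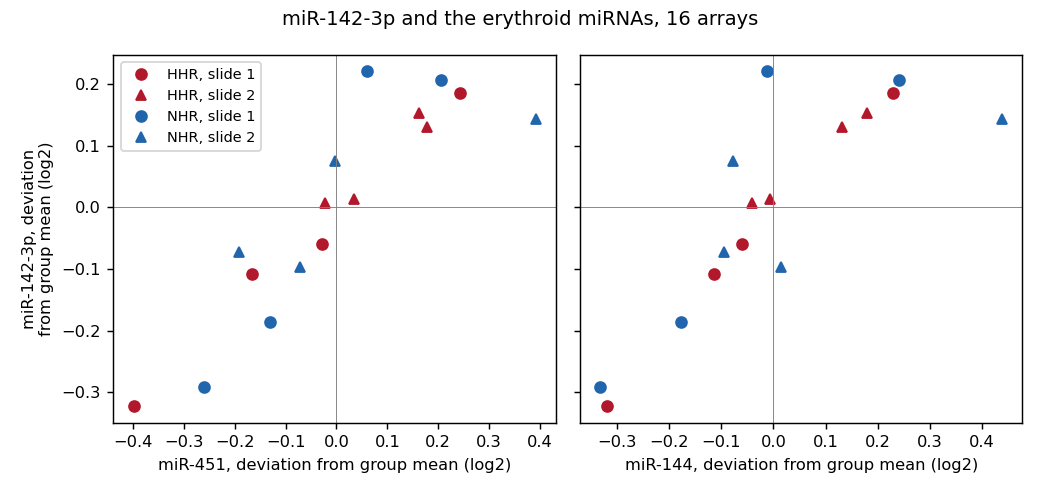
Deviation of miR-142-3p from its group mean (log2) on each of 16 arrays against that of miR-451 (left) and miR-144 (right), HHR in red and NHR in blue, with circles for slide 1 and triangles for slide 2. The points rise together, with r = 0.89 for miR-451 and 0.84 for miR-144, and HHR male 2 is at the lower left of both panels.

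Among animals of the same group, no pair of the 4 leukocyte miRNAs had a correlation that passed its test. Pearson's r between deviations from group means ran from 0.20 for miR-223 with miR-142-3p to 0.66 for miR-150 with miR-223 over the 6 pairs, each over 16 arrays. After Benjamini-Hochberg adjustment over the 6 pairs, the permutation p from 100000 shuffles within groups lay between 0.216 and 0.577. Spearman's rho lay between 0.13 and 0.56, with adjusted permutation p of 0.322 to 0.692. The r of miR-150 with miR-223 was 0.47 without the 2 arrays farthest from the median, 0.73 on slide 1 and 0.72 on slide 2, and 0.30 within HHR against 0.85 within NHR. Within HHR, r was negative for miR-150 with miR-146a (-0.06), miR-223 with miR-146a (-0.54) and miR-223 with miR-142-3p (-0.46). These were 0.81, 0.67 and 0.37 within NHR. miR-150 and miR-146a, each with miR-142-3p, had 0.52 and 0.35 within HHR, and 0.47 and 0.25 within NHR. On the unscaled levels 5 of the 6 pairs passed by Pearson's r, and unscaled levels share array brightness.

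Of the other miRNAs known from immune cells or induced by inflammatory signals, 16 of 20 were tested, and 8 were lower and 0 higher in HHR, with a median log2 difference of -0.11, the same as over all tested miRNAs, of which 45.5% were called lower, a share close to 8 of 16. The leading 4 by p were miR-23a (-0.13 ± 0.03), miR-24 (-0.13 ± 0.03), miR-27a (-0.13 ± 0.03) and miR-181a (-0.14 ± 0.03), with limma adjusted p of 8.73e-04 to 0.00174. The first 3 come from clusters that are also active in vessel walls and muscle, and miR-181a is known from lymphocyte development. miR-146b, the seed partner of miR-146a, averaged 18.6 ± 1.06 in HHR hearts and 20.5 ± 1.23 in NHR hearts (SD, n = 8 each), a difference of -0.13 ± 0.04 (SE, limma adjusted p = 0.0185). miR-342-3p, abundant in lymphocytes and transcribed from an intron of Evl, did not pass, at -0.06 ± 0.03 (limma adjusted p = 0.136). miR-132, miR-147 and miR-511 were on no array. miR-511*, from the other arm of the miR-511 hairpin and chosen once its values were known, was found on 5 HHR and 3 NHR arrays and averaged 4.53 ± 0.73 in HHR hearts and 5.63 ± 0.86 in NHR hearts (SD, n = 8 each), the lowest difference in this list at -0.32 ± 0.12 (SE, limma adjusted p = 0.0424).

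Of the 3 calls, that of miR-150 held under the most settings. The scaling shifted the median difference of all tested miRNAs, from -0.11 in the reported setting to 0.03 under median centring, 0.15 under spike-in scaling and 0.23 without scaling. Relative to that median, miR-150 stood at -0.43 in the reported setting, -0.43 under median centring and -0.42 without scaling, and miR-146a at -0.19 in each of these, which follows from their applying 1 factor per array. The normexp alternative, with its offset of 50, and the authors' deposited table, whose processing is not given, differed. Relative to their own medians, miR-150 stood at -0.14 with normexp and -0.13 in the authors' deposited table, and miR-146a at -0.069 and -0.060. In absolute terms miR-150 was lower in HHR under all 19 other settings tried and passed limma's adjusted threshold under 14 of the 17 that had a test, but not without scaling (-0.19, limma adjusted p = 0.173), under spike-in scaling (-0.27, 0.148) or in the authors' deposited table of values (-0.07, 0.207). miR-223 was lower under those 19 settings too, passing under 11. miR-146a passed under 12, but turned to 0.04 without scaling and to 0.01 in the authors' deposited table.

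**Figure D5:**
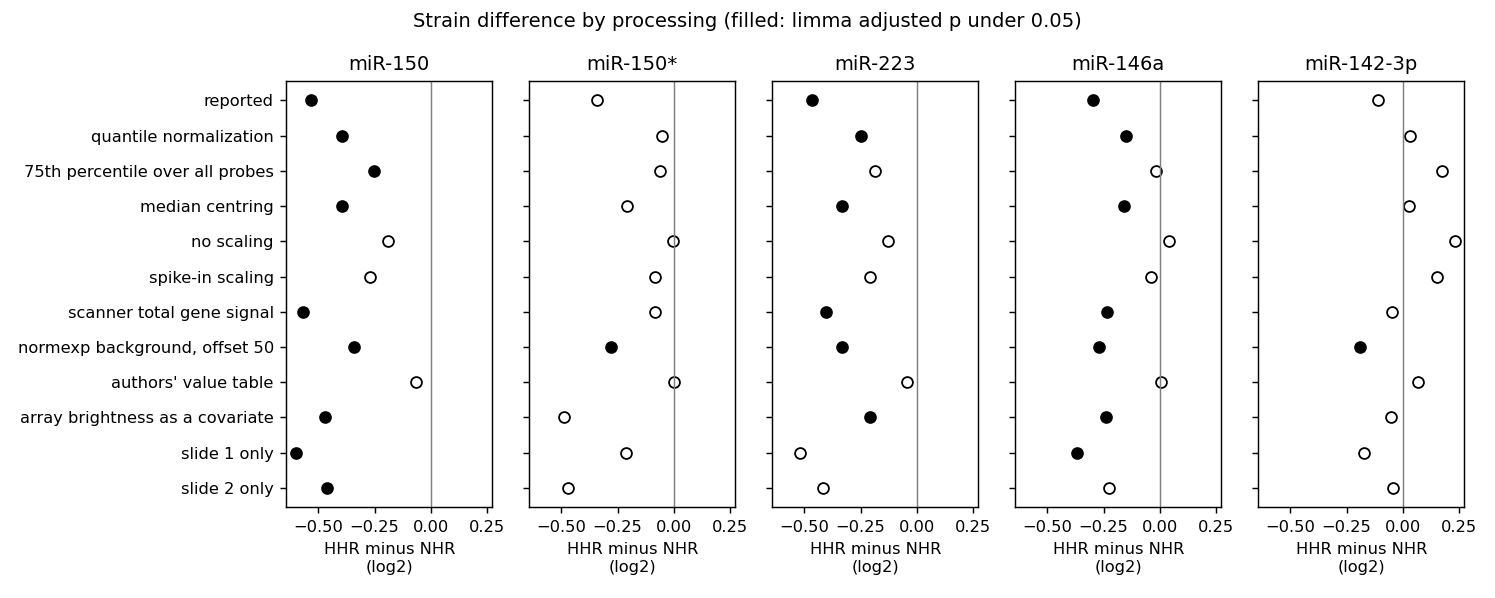
Log2 difference of HHR minus NHR for 5 leukocyte miRNAs in the reported setting and under 11 others, 1 line each, with filled symbols where the limma adjusted p was under 0.05. miR-150 stays left of 0 in every line, from -0.60 to -0.07, and miR-142-3p lies on both sides of 0, from -0.19 to 0.23.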

How the data were processed

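Heart RNA of 16 newborn rats was measured on 16 arrays, 4 for each sex of HHR and of NHR, grouped by the labels. The number of arrays limits the precision. The authors deposited scanner output whose spot intensities, per the file headers, come from Feature Extraction 10.7.3.1 (Agilent) and are background-subtracted but not scaled between arrays. The headers name the rn4 build. The detection and outlier flags (other values, 0 or 1) are those deposited there. A further deposited table gives log2 values per miRNA, for which the submitters' processing notes name limma. How it was corrected for background, scaled or centred is not given in the sources used here. It entered as an alternative.

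Levels were computed from the processed signal. Outlier spots were dropped, spots of a probe averaged, each array scaled to its 75th percentile over 258 probes well above background on all arrays, the 2 probes of each member averaged on the linear scale, and log2 taken above a floor of 1.88 (0.91 on the log2 scale). The test took in the 233 miRNAs that were detected on 4 or more arrays. limma 3.58.1 in R 4.3.3 fitted 1 mean per group, with contrasts for strain, sex and their interaction, Benjamini-Hochberg adjustment over the 233 and a threshold of 0.05, and was tested on simulated data. Fisher's test used SciPy 1.17.1, and the permutation tests were written in Python 3.11.15. The files have no mean signal, so the normexp alternative used the median signal, with an offset of 50. Scan time and slide coincide. The named miRNAs are all members, the 3 most like each member, and the leading ones by p of the other lists. miR-146b was named for its seed and miR-342-3p as a neighbour. Members and lists were chosen with earlier results of these data known.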

Additional observations from a re-analysis of the deposited data

Results flagged for a closer look

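In miR-142-5p, the scaled signal of NHR male 3 was 2.75, apart from the other 3 NHR males at 3.90 to 3.95, with a gap of 0.960 of the group's range. It was the only one of 24 groups of 4 arrays checked that held such a distant value, where chance gives about 1 in 20. miR-142-5p was detected on no array.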

How the results depend on the processing

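Several settings moved the strain results, and the cause was not tested. The count of miRNAs that differed between the strains, 127 in the reported setting (21 higher and 106 lower in HHR), was 70 with the scanner total gene signal (34 higher, 36 lower), 48 without scaling (38 and 10), 29 under spike-in scaling (19 and 10), 15 in the authors' table (13 and 2), 74 with brightness as a covariate (15 and 59), and 37 and 47 on slides 1 and 2 alone, where fewer arrays enter. Quantile normalization gave 57 higher and 45 lower, the 75th percentile over all probes 134 and 21, median centring 54 and 33, and normexp 2 and 163. Leaving out 1 array gave 106 to 128.

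Without scaling, the log2 differences of HHR minus NHR were -0.19 for miR-150, -0.13 for miR-223, 0.042 for miR-146a and 0.23 for miR-142-3p. Under spike-in scaling they were -0.27, -0.21, -0.037 and 0.15 in that order, and in the authors' table -0.068, -0.046, 0.0056 and 0.069. The 75th percentile over all probes gave -0.19 for miR-223, -0.017 for miR-146a and 0.17 for miR-142-3p. miR-142-3p was at 0.030 under quantile normalization and 0.028 under median centring. None of these passed. With normexp miR-142-3p passed at -0.19 (limma adjusted p = 0.0348), and miR-150* at -0.28 (0.0165). On slide 1 alone miR-223 was at -0.52, on slide 2 alone miR-223 was at -0.42 and miR-146a at -0.23, none passing. miR-150* was at 0.0018 in the authors' table and passed at -0.34 with the slide as a block. Leaving out 1 array in turn kept each strain call, with ranges of -0.55 to -0.51 for miR-150, -0.45 to -0.25 for miR-150*, -0.52 to -0.41 for miR-223, -0.33 to -0.28 for miR-146a and -0.16 to -0.054 for miR-142-3p.

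The replicate numbers were not taken as pairing the animals, since the labels do not say so and not every same-numbered pair of arrays had a correlation of deviations over 0.1. Over 24 same-numbered pairs it averaged 0.21 (-0.22 to 0.53, 16 over 0.1), and over 72 others -0.069 (22 over 0.1). With the replicate block, miR-150* passed at -0.34 (limma adjusted p = 0.0110), 124 miRNAs differed by strain and 1 by sex. The number also follows the slide.

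By sex, 3 miRNAs passed among those detected on all 16 arrays, and leaving out 1 array gave 0 to 10, the highest without NHR male 1, 3 without HHR male 3, 2 without HHR male 4, and 1 without NHR female 1 or NHR male 4. The sex differences of the members, all near 0, changed sign with several settings, none passing. For miR-150 these were 0.0065 with normexp, 0.012 without scaling, 0.11 under spike-in scaling and 0.0024 on slide 2. For miR-150* they were -0.095 with the total gene signal and -0.0049 with the percentile over all probes. For miR-223 they were 0.0050 without scaling, 0.11 under spike-in scaling, 0.041 on slide 1 and 1.48e-05 with brightness as a covariate. For miR-146a they were 0.0057 with normexp, 0.018 without scaling, 0.12 under spike-in scaling, 0.0035 in the authors' table, 0.025 on slide 2 and 6.39e-04 with brightness. For miR-142-3p the percentile over all probes gave -0.014. Leaving out 1 array gave -0.027 to 0.011 for miR-150, -0.032 to 0.16 for miR-150*, -0.073 to 0.038 for miR-223, -0.033 to 0.018 for miR-146a and -0.0035 to 0.087 for miR-142-3p. The interaction changed sign without scaling for miR-150 (0.0013), miR-223 (0.029), miR-146a (0.022) and miR-142-3p (0.086), for miR-142-3p also under spike-in scaling (8.26e-04) and in the authors' table (0.0021), for miR-150* on slide 1 (0.13), and for miR-223 on slide 2 (0.0057). Leaving out 1 array gave -0.39 to 0.011 for miR-150* and -0.20 to 0.0058 for miR-142-3p.

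If a miRNA counts as detected only where a share of at least 0.5 of its spots is well above background, miR-150* was on 3 HHR and 4 NHR arrays, a difference of -1 (Fisher's exact p = 1). Pearson correlations within groups passed on unscaled levels and in the authors' table for miR-150 with miR-223 (r = 0.68 and 0.72), miR-150 with miR-146a (0.93 and 0.92), miR-150 with miR-142-3p (0.80 and 0.75), miR-223 with miR-146a (0.66 and 0.68) and miR-146a with miR-142-3p (0.74 and 0.75). By Spearman's rho, miR-150 with miR-223 did not pass on unscaled levels (0.44, adjusted permutation p = 0.184). miR-223 with miR-146a passed by rho neither on unscaled levels (0.57, adjusted permutation p = 0.0720) nor in the authors' table (0.44, 0.0616). Among the within-array ratios, miR-146a over miR-142-3p passed with normexp at -0.077 (exact permutation adjusted p = 0.0490) and without HHR male 2 or NHR male 4 (-0.24 to -0.14 over all arrays left out). miR-223 over miR-146a passed without NHR female 3 or NHR male 2 (-0.22 to -0.13). miR-142-3p over miR-451 missed in the authors' table at -0.20 (0.0666). The miR-150 over miR-146a ratio passed under each alternative tried, from -0.33 with the total gene signal to -0.073 in the authors' table.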

Other observations

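Markers of other cell types in the same hearts, taken as lists, moved as follows. Of the endothelial miRNAs, miR-126 averaged 1014.1 ± 34.0 in HHR hearts and 1161.9 ± 35.9 in NHR hearts (SD, n = 8 each), a log2 difference of -0.20 ± 0.03 (SE, limma adjusted p = 4.48e-05). miR-126* differed by -0.23 ± 0.05 (limma adjusted p = 0.00132), so 2 of the 3 tested members were lower. The other tested one, miR-221, was detected on 8 arrays and went the other way, at 0.20 ± 0.09 (SE), without passing (limma adjusted p = 0.0780). miR-222 was on no array. Of the cardiomyocyte miRNAs, 3 of 5 tested were lower, led by miR-499, encoded within a myosin heavy chain gene, at -0.28 ± 0.03 (limma adjusted p = 1.80e-06) and miR-133b at -0.15 ± 0.03 (0.00132). Both smooth muscle miRNAs were lower, miR-143 at -0.12 ± 0.02 and miR-145 at -0.13 ± 0.03. Of the 3 fibroblast miRNAs, 1 was higher, miR-199a-5p at 0.20 ± 0.07 (limma adjusted p = 0.0335), and miR-214 at 0.16 ± 0.07 did not pass (0.0747). The background for these counts is the 45.5% called lower and 9.01% called higher over all tested miRNAs.

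The sum of miR-451 and miR-144, weighted by the brightness of their probes, lay between 198.9 and 307.4 in HHR hearts, against 208.9 to 331.8 in NHR hearts. The part of white or red blood cell content in the strain differences was not tested.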
